A study of Cricetulus griseus with 9 samples.

Results

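Matricellular proteins, small proteoglycans and elastic fibre proteins were followed at the transcript level through 8 genes chosen by name: Sparc, Thbs1, Tnc and Cyr61, which encode matricellular proteins, Dcn and Bgn, which encode small leucine-rich proteoglycans, and Eln and Fbn1, which encode the core and the scaffold of elastic fibres. Of the 15557 genes quantified, 7 were found by their mouse Ensembl identifiers. Eln (ENSMUSG00000029675) had no row and no gene model among those quantified, so it was not analysed here and nothing is said of its expression. The cells were CHO-K1, an established epithelial-like line from Chinese hamster ovary. They were harvested 48 h after lipid transfection, and 3 libraries each came from cells given pre-miR-29b-1, cells given pre-miR-29a and cells given anti-miR-29a. All groups share the cell line, the transfection reagent and a medium with charcoal-stripped serum. A pre-miR is a synthetic molecule that supplies a microRNA, whereas an anti-miR inhibits one, and per the submitters the anti-miR-29a used acts on miR-29b-1 as well. The labels state that PCR showed the microRNAs raised or lowered in the cells concerned. Cells given neither kind of molecule were not analysed here, so a difference can come from either side of a comparison.

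MicroRNAs of the miR-29 family share their seed, the short stretch by which targets are recognised, and lower the stability or translation of the target mRNAs. In human and mouse cells the family is best known for repressing genes of the extracellular matrix, among them collagens, elastin, fibrillin 1 and Sparc. Matricellular proteins are secreted into the matrix but regulate how cells attach to it and signal, whereas elastin laid down on fibrillin microfibrils gives tissues their recoil.

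Implied library depth was 15910000 to 21900000 reads, and between 11338 and 12074 genes had a value above 0 in a library. This depth is the library size at which the values step in whole reads. It may include a scaling factor, so it need not equal the reads sequenced. Levels are FPKM, fragments per kilobase scaled to library size. The length that fits the values is that of the coding model less 202 bases, and comparisons of level between genes rest on that length. Cells were grown in triplicate, per the labels, which leave unsaid whether the 3 libraries of a molecule were transfected separately. The p-values therefore reflect library-to-library spread alone, which may be technical. The design text mentions separate experiments, and if each molecule had its own, the experiment and the molecule cannot be told apart.

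The 7 genes fell into a group of 4 with a mean of at least 1 FPKM and a group of 3 at low levels. Of these 3, Fbn1 and Tnc had reads in all 9 libraries, whereas Bgn had at most 3 reads in a library. With anti-miR-29a the order of levels was Sparc at 1842 ± 17.8 FPKM (SD, n = 3), Dcn at 786.2 ± 17.5 FPKM, Cyr61 at 53.6 ± 3.89 FPKM and Thbs1 at 44.9 ± 3.59 FPKM, followed by Fbn1, Tnc and Bgn, which were all under 0.4 FPKM. Cyr61 and Thbs1 were neighbours whose ranges with anti-miR-29a, 49.9 to 57.6 FPKM and 41.4 to 48.5 FPKM, did not overlap but lay close together. With either pre-miR the order stayed Sparc, Dcn, Cyr61, Thbs1, and Cyr61 then stood clearly above Thbs1. Of the elastic fibre genes, Fbn1 was the only one quantified, and its level was under 0.4 FPKM in all 9 libraries, so the expressed genes here are matricellular genes and the proteoglycan gene Dcn.

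**Figure D1:**
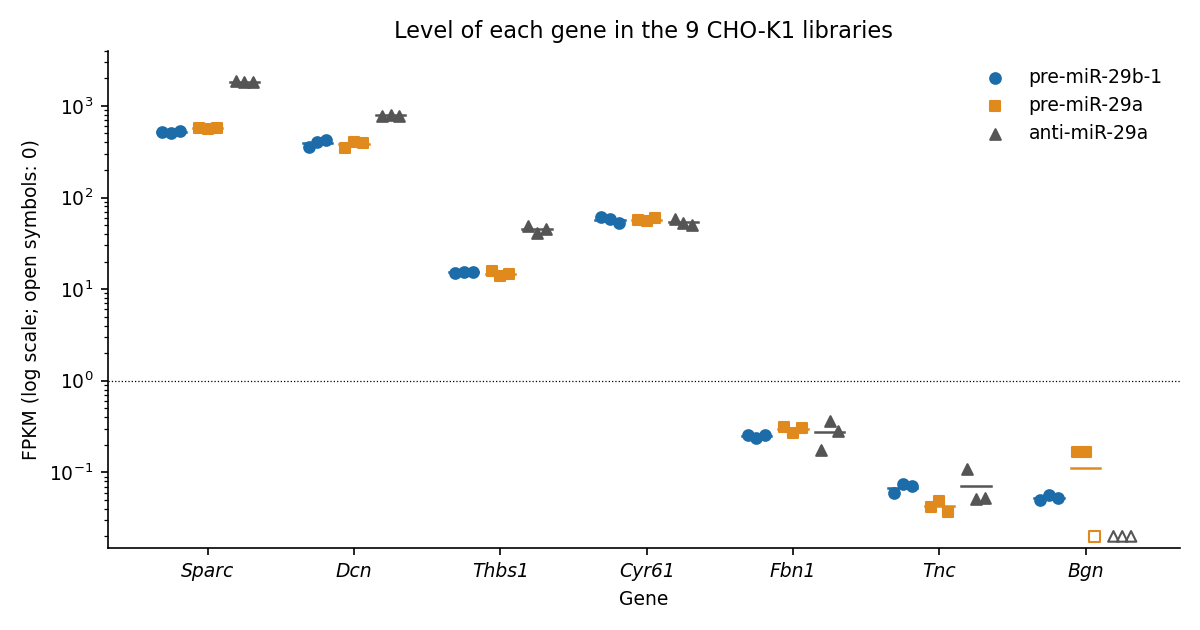
FPKM of the 7 quantified genes in each of the 9 libraries on a log axis, with group means as short lines, open symbols for values of 0, and a dotted line at 1 FPKM, the mean level needed for testing. Sparc, Dcn and Thbs1 sit lower in all 6 pre-miR libraries than in the anti-miR-29a libraries, Cyr61 sits at about the same level in all 9, and Fbn1, Tnc and Bgn lie under the dotted line.

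Sparc (ENSMUSG00000018593) encodes osteonectin, a collagen-binding glycoprotein that shapes matrix assembly, and was the most abundant of these transcripts. Its estimated fold changes against anti-miR-29a were the largest of the set, although with pre-miR-29a its interval overlapped that of Thbs1. Sparc stood at 513.3, 509.1 and 526.7 FPKM with pre-miR-29b-1, at 571.9, 557.5 and 578.3 FPKM with pre-miR-29a, and at 1860, 1840 and 1825 FPKM with anti-miR-29a. Every pre-miR library was far below every anti-miR-29a library, and the libraries of a group were close to each other. Its level was 3.56-fold lower with pre-miR-29b-1 than with anti-miR-29a (95% interval 3.32 to 3.82), a log2 fold change of -1.83 (SE 0.046), and its adjusted p was 5.06e-09 (limma with Benjamini-Hochberg adjustment). With pre-miR-29a it was 3.23-fold lower (3.01 to 3.47), a log2 fold change of -1.69 (SE 0.046) with an adjusted p of 8.67e-09 (limma). Fold changes are on the scale of log2(FPKM + 1), and in bulk RNA fewer cells of a kind and less RNA per cell cannot be told apart. Sparc ranked 340 by level among the 15557 genes with pre-miR-29b-1 and 327 given pre-miR-29a, against 90 with anti-miR-29a. Between 7088 and 24368 reads per library stood behind these values, and the spread between libraries of a group, 0.964% to 1.87% of the mean, was close to the 0.659% to 1.15% that counting alone would give. The Sparc model has 10 coding exons and 912 coding bases on scaffold JH000154 of the CriGri_1.0 assembly, from 1401469 to 1413722 on the minus strand.

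Thbs1 (ENSMUSG00000040152) encodes thrombospondin 1, a trimeric glycoprotein that binds CD36 and CD47 on cells, inhibits angiogenesis and can activate latent TGF-beta. It was present at a moderate level and was also lower with both pre-miRs. The values were 15.1, 15.4 and 15.5 FPKM with pre-miR-29b-1, 15.7, 13.9 and 14.6 FPKM with pre-miR-29a, and 48.5, 41.4 and 44.9 FPKM with anti-miR-29a. The pre-miR libraries did not overlap with the anti-miR-29a libraries, whose lowest value was over 2 times the highest pre-miR value. Thbs1 was 2.81-fold lower with pre-miR-29b-1 than with anti-miR-29a (95% interval 2.52 to 3.13), at a log2 fold change of -1.49 (SE 0.070) and an adjusted p of 1.65e-07 (limma). With pre-miR-29a it was 2.92-fold lower (2.62 to 3.25), at -1.55 (SE 0.070) and an adjusted p of 1.12e-07 (limma). Its model, 20 exons and 3513 coding bases on JH000389 from 507774 to 520516, minus strand, gathered 841 to 2906 reads per library.

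Dcn (ENSMUSG00000019929) encodes decorin, a small leucine-rich proteoglycan that decorates collagen fibrils and binds TGF-beta and several growth factor receptors. It was the second most abundant of the genes and had the smallest fold changes of the 3 that passed the test. Its level was 358.6, 405.5 and 429.6 FPKM with pre-miR-29b-1, 343.3, 400.3 and 397.1 FPKM with pre-miR-29a, and 769.0, 804.0 and 785.7 FPKM with anti-miR-29a. The groups did not overlap, but the pre-miR libraries were more spread, with an SD of 9.07% of the mean with pre-miR-29b-1 and 8.42% given pre-miR-29a, against 2.23% with anti-miR-29a. Counting alone would give 0.920% to 1.27%. Dcn was 1.98-fold lower with pre-miR-29b-1 than with anti-miR-29a (95% interval 1.75 to 2.24), at -0.98 on the log2 scale (SE 0.079) with an adjusted p of 5.02e-06 (limma). With pre-miR-29a it was 2.07-fold lower (1.83 to 2.34), at -1.05 (SE 0.079) with an adjusted p of 2.87e-06 (limma). The annotation holds the Dcn model as 2 identical copies of 8 exons and 1056 coding bases on JH000429, from 416544 to 449339 on the minus strand, so no isoforms are told apart in its value.

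Cyr61 (ENSMUSG00000028195), also called Ccn1, encodes a secreted integrin ligand of the CCN family whose transcription responds quickly to growth factors and to YAP. It did not share the pattern of the other tested genes of the set. The values were 60.8, 58.2 and 53.3 FPKM with pre-miR-29b-1, 57.1, 55.3 and 59.1 FPKM with pre-miR-29a, and 57.6, 53.3 and 49.9 FPKM with anti-miR-29a. The ranges of the groups overlapped. The log2 fold change was 0.10 with pre-miR-29b-1 (95% interval -0.05 to 0.25, adjusted p 0.240, limma) and 0.09 with pre-miR-29a (-0.06 to 0.24, adjusted p 0.257, limma), so a fall of the size seen for Dcn lies outside both intervals. Cyr61 passed the threshold as higher after quantile normalization, at 0.18 with pre-miR-29b-1 (adjusted p 0.0414, limma) and 0.17 with pre-miR-29a (adjusted p 0.0450, limma), and with array weights, at 0.14 (adjusted p 0.0392, limma) and 0.17 (adjusted p 0.0182, limma). Over all alternatives its adjusted p lay between 0.0392 and 0.602 with pre-miR-29b-1 and between 0.0182 and 0.634 with pre-miR-29a (limma). Its 5 exons and 1137 coding bases lie on JH002084 from 126497 to 128596, plus strand, and held 793 to 1245 reads per library.

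**Figure D2:**
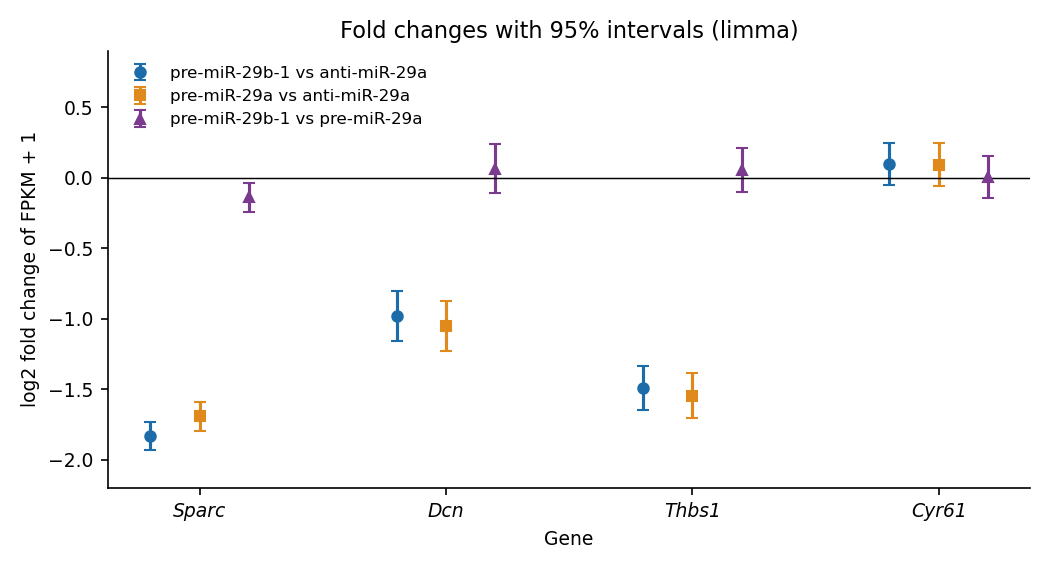
Log2 fold changes of FPKM + 1 for the 4 tested genes, with 95% intervals as bars, for each pre-miR over anti-miR-29a and for pre-miR-29b-1 over pre-miR-29a. Sparc, Thbs1 and Dcn lie between -1.83 and -0.98 against anti-miR-29a, Cyr61 lies near 0, and the differences between the pre-miRs lie between -0.14 and 0.06.

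Of the 7 quantified genes, 4 had a mean of at least 1 FPKM and were tested together with all 9504 such genes, and 3 of these 4 were lower and 0 higher with each pre-miR than with anti-miR-29a. A call was common in these data. With pre-miR-29b-1, 55.2% of all tested genes were called, 29.4% as lower and 25.8% as higher than with anti-miR-29a (limma). With pre-miR-29a, 58.4% were called, 30.9% as lower and 27.5% as higher (limma). The split of all called genes turned with the scaling in both comparisons. For pre-miR-29b-1 it was 2451 higher and 2795 lower, but 3170 higher and 2474 lower after quantile normalization. For pre-miR-29a it was 2613 higher and 2940 lower, but 3340 higher and 2494 lower after quantile normalization. The groups were free of overlap for 67.6% of tested genes with pre-miR-29b-1 and 62.2% given pre-miR-29a, and for 3 of these 4 genes with either. A fall this large was less common, since 3.45% of tested genes were called and at least 2-fold lower with pre-miR-29b-1 and 4.26% given pre-miR-29a. Sparc and Thbs1 passed that size with both pre-miRs, and Dcn with pre-miR-29a. Dcn lay at the limit with both, at 1.98-fold (1.75 to 2.24) with pre-miR-29b-1 and 2.07-fold (1.83 to 2.34) given pre-miR-29a. The cutoff therefore shows no difference between the pre-miRs for Dcn. As a description of genes chosen by name, the median log2 fold change of the 4 was -1.24 with pre-miR-29b-1 and -1.30 given pre-miR-29a. Cyr61, at 0.10 and 0.09, lay apart from the other 3. Over all tested genes the median was -0.006 and -0.016.

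By rank, 39 of the 9504 tested genes had a lower log2 fold change than Sparc with pre-miR-29b-1 and 67 given pre-miR-29a. For Thbs1 the numbers were 101 and 109, and for Dcn 358 and 376. Among abundant genes, 4 of the 177 with a mean level at or above that of Sparc, itself included, were at least 2-fold lower with each pre-miR. Of the 177, 1 had a lower log2 fold change than Sparc with pre-miR-29b-1 and 2 given pre-miR-29a. Of the 353 genes at or above the level of Dcn, 9 had a lower log2 fold change than Dcn with pre-miR-29b-1 and 8 given pre-miR-29a. Of the 5955 genes at or above the level of Thbs1, 68 had a lower log2 fold change than Thbs1 with pre-miR-29b-1 and 66 given pre-miR-29a. The anti-miR-29a libraries serve in both comparisons, so their likeness is not counted as a result.

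**Figure D3:**
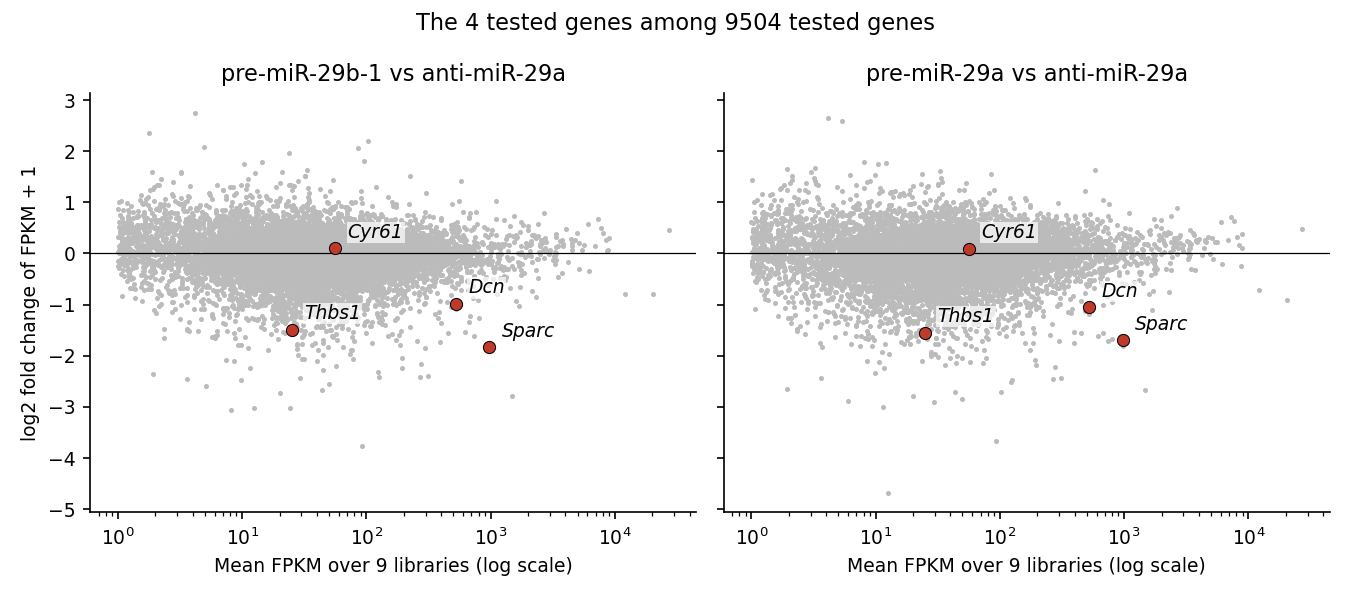
Log2 fold change of FPKM + 1 against mean FPKM (log axis) for the 9504 tested genes in grey, with pre-miR-29b-1 on the left and pre-miR-29a on the right, both over anti-miR-29a. The 4 tested genes described here are red. Sparc, Dcn and Thbs1 lie below most genes of their level, and Cyr61 lies within the bulk.

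The pre-miRs were also set against each other, which asks whether the family members differ. Sparc was lower with pre-miR-29b-1 than with pre-miR-29a, without overlap of the libraries, with a log2 fold change of -0.14 (95% interval -0.24 to -0.04). The unadjusted p was 0.0124 and the adjusted p 0.233 (limma), so the difference did not pass. Groups without overlap made up 18.9% of all tested genes in this comparison, and 16.5% had an unadjusted p under 0.05 (limma). With array weights, which give less weight to libraries that scatter more, the Sparc difference was -0.16 and passed (adjusted p 0.00466, limma), and over all alternatives the adjusted p lay between 0.00466 and 0.598. For Thbs1 the difference was 0.06 (-0.10 to 0.21, adjusted p 0.687, limma), for Dcn 0.06 (-0.11 to 0.24, adjusted p 0.686, limma) and for Cyr61 0.01 (-0.14 to 0.15, adjusted p 0.974, limma). The groups overlapped for each of these 3 genes. All 4 intervals lay within 1.5-fold, as they did for 92.7% of tested genes, and 0.0105% of tested genes, a single gene outside this set, was called.

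Estimated fold changes differed in size between the genes, though the intervals of Sparc and Thbs1 overlapped with pre-miR-29a. The shares of their summed level are given as a description. Summed over the 7 genes, the level was 987.4 ± 38.6 FPKM with pre-miR-29b-1 and 1022 ± 30.8 FPKM with pre-miR-29a, against 2727 ± 18.5 FPKM with anti-miR-29a (SD, n = 3 each). Sparc made up 52.3% ± 1.56 of the sum with pre-miR-29b-1 and 55.7% ± 1.88 given pre-miR-29a, against 67.5% ± 0.419 with anti-miR-29a. Dcn made up 40.2% ± 2.15 and 37.2% ± 2.19, against 28.8% ± 0.645. Cyr61, whose own level did not pass the test, made up 5.83% ± 0.611 and 5.60% ± 0.198, against 1.97% ± 0.133. With the pre-miRs these are shares of a smaller sum, so a larger share of Dcn or Cyr61 does not mean a higher level.

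Ratios between genes of the same library do not change when a single factor scales that library. Quantile scaling shifts genes by level and can change them. The ratios given are of the deposited values. Sparc over Dcn was 1.43, 1.26 and 1.23 with pre-miR-29b-1 and 1.67, 1.39 and 1.46 with pre-miR-29a, against 2.42, 2.29 and 2.32 with anti-miR-29a. No pre-miR library reached the anti-miR-29a values. Sparc over Thbs1 was 33.95, 32.98 and 34.06 with pre-miR-29b-1 and 36.34, 40.16 and 39.74 with pre-miR-29a, against 38.32, 44.48 and 40.61 with anti-miR-29a. The pre-miR-29a libraries overlapped the anti-miR-29a libraries in this ratio, which was lower with pre-miR-29b-1 than in either other group. Thbs1 over Dcn averaged 0.0387 ± 0.0031 with pre-miR-29b-1 and 0.0391 ± 0.0060 given pre-miR-29a, against 0.0573 ± 0.0058 with anti-miR-29a (SD, n = 3 each), without overlap. The unequal change of Sparc and Dcn had an exact permutation p of 0.10 (two-sided) with each pre-miR, the smallest that 3 libraries against 3 can give. Over the 18 ratio comparisons made, 12 of which reached this p, the lowest adjusted p was 0.15 (exact permutation tests), so none passed. A permutation test of 3 libraries against 3 cannot pass the threshold of 0.05, and no model-based test of the ratios was run.

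**Figure D4:**
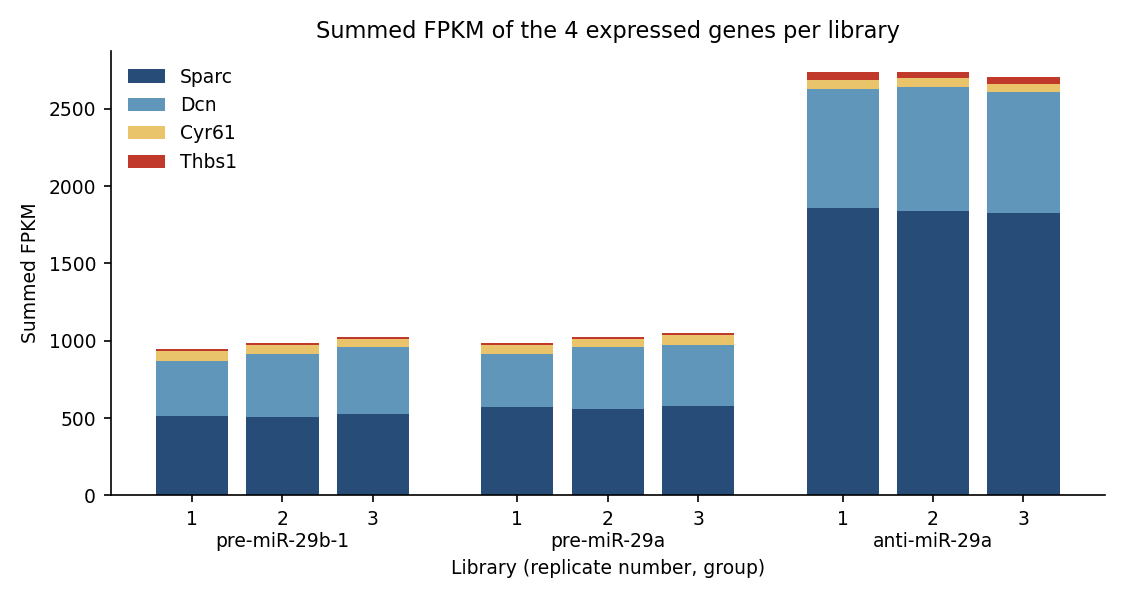
FPKM of Sparc, Dcn, Cyr61 and Thbs1 stacked for each of the 9 libraries, grouped by transfected molecule, on a linear axis from 0. The sums are lower with both pre-miRs than with anti-miR-29a, and most of the gap is in the Sparc and Dcn segments.

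Fbn1, Tnc and Bgn were too low for the test across genes, and their values are given as whole reads recovered from the FPKM. Fbn1 (ENSMUSG00000027204) encodes fibrillin 1, the backbone of the microfibrils on which elastin is deposited. It had 44, 37 and 42 reads with pre-miR-29b-1, 49, 42 and 42 reads with pre-miR-29a, and 25, 46 and 42 reads with anti-miR-29a. In FPKM, 1 anti-miR-29a library lay below all pre-miR libraries, 1 among them and 1 above them, whereas the pre-miR groups did not overlap each other. The mean was 0.249 ± 0.0089 FPKM with pre-miR-29b-1 and 0.296 ± 0.027 FPKM with pre-miR-29a, against 0.274 ± 0.096 FPKM with anti-miR-29a (SD, n = 3 each). The exact permutation p was 0.70 for pre-miR-29b-1 and 0.80 for pre-miR-29a against the anti-miR, and 0.10 between the pre-miRs (two-sided). Summed over each group's libraries, exact Poisson 95% intervals were 0.207 to 0.297 FPKM with pre-miR-29b-1 and 0.247 to 0.350 FPKM with pre-miR-29a, against 0.223 to 0.325 FPKM with anti-miR-29a. They cover counting error only, and all 3 overlap. The Fbn1 model, held as 2 identical copies of 61 exons and 8109 coding bases on JH000640 from 495398 to 605134, plus strand, is the longest of the set.

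Tnc (ENSMUSG00000028364) encodes tenascin C, a hexameric matricellular protein of development, wound repair and tumour stroma. It had 8, 9 and 9 reads with pre-miR-29b-1, 5, 6 and 4 reads with pre-miR-29a, and 12, 5 and 6 reads with anti-miR-29a. In FPKM, the anti-miR-29a libraries, at 0.108, 0.051 and 0.052, enclosed those with pre-miR-29b-1, whereas those with pre-miR-29a, at 0.042, 0.049 and 0.037, lay just below both other groups. The exact permutation p was 1 for pre-miR-29b-1 and 0.10 for pre-miR-29a against the anti-miR, and 0.10 between the pre-miRs (two-sided). The summed rates were 0.068 FPKM with pre-miR-29b-1 (exact Poisson 95% interval 0.0444 to 0.0995) and 0.043 FPKM with pre-miR-29a (0.024 to 0.071), against 0.071 FPKM with anti-miR-29a (0.045 to 0.107). These intervals overlap, which is no test of a difference, and the counts were not compared directly. Its 26 exons and 6333 coding bases lie on JH000663 from 321081 to 384631, minus strand.

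Bgn (ENSMUSG00000031375) encodes biglycan, the closest relative of decorin among the small leucine-rich proteoglycans, and its level was unlike that of Dcn. It had 1 read in each pre-miR-29b-1 library, 3, 3 and 0 reads in the pre-miR-29a libraries, and 0 reads in each anti-miR-29a library. A count of 0 over the anti-miR-29a libraries allows a level of up to 0.063 FPKM, taken as 3 reads over the group. By the other convention used here, the exact two-sided Poisson 95% interval, the upper limit is slightly higher. These intervals were 0.011 to 0.155 FPKM with pre-miR-29b-1, 0.043 to 0.252 FPKM with pre-miR-29a and 0 to 0.077 FPKM with anti-miR-29a, which overlap. The libraries with pre-miR-29a ranged from 0 to 0.169 FPKM and overlapped both other groups, and those with pre-miR-29b-1, at 1 read each, lay above the anti-miR-29a libraries at 0. The exact permutation p was 0.10 for pre-miR-29b-1 and 0.40 for pre-miR-29a against the anti-miR (two-sided). Its 7 exons and 1110 coding bases lie on JH000676 from 731964 to 735640, minus strand.

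**Figure D5:**
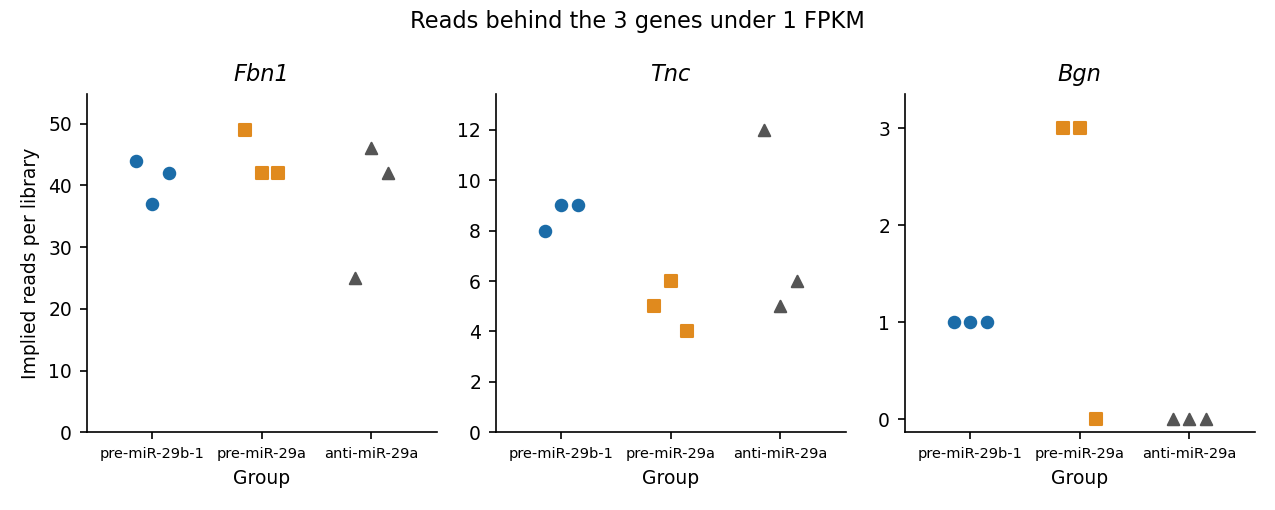
Whole reads per library behind Fbn1, Tnc and Bgn, with 3 libraries in each of the 3 groups. Fbn1 rests on 25 to 49 reads, Tnc on 4 to 12 and Bgn on 0 to 3, so for Tnc and Bgn a few reads are a large relative difference.

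In a fit without the filter on low values, none of these 3 genes passed in any comparison. The lowest adjusted p among them was 0.0627 (limma), for Bgn with pre-miR-29a over the anti-miR, at a log2 fold change of 0.15 that rests on 6 reads against 0.

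Across the 9 libraries the level of Sparc followed that of many genes. Sparc values split into pre-miR and anti-miR libraries, and other genes with such a split tend to give a high r with it. By Pearson's r of log2(FPKM + 1), given as a description, 11.3% of the other tested genes had r above 0.95 with Sparc, and 12.2% with Thbs1. For Dcn 950 of the 9503 others did, and for Cyr61 0. The closest pattern to that of Sparc was that of ENSMUSG00000070436, with r of 0.999 over 9 libraries. That transcript stood at 489.6 ± 6.73 FPKM with pre-miR-29b-1 and 532.7 ± 14.6 FPKM with pre-miR-29a, against 3399 ± 184 FPKM with anti-miR-29a (SD, n = 3 each).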

How the data were processed

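The authors deposited FPKM per gene and library as 1 table. The submitters' processing notes name FastQC, TopHat2 2.0.13 and Cuffnorm. How libraries were scaled, whether strand was used and what was filtered is not given in the sources used here. Genes were defined, per the file headers, by placing mouse proteins (Ensembl release 66) on CriGri_1.0. Of the model lengths 99.91% are multiples of 3, so these are coding lengths. Other identifiers carry no names in the sources used here, because 0 matched the RefSeq table of CriGri-PICRH-1.0, so lists of further matrix genes were not counted.

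Whole reads were recovered from the FPKM. Using genes with a single, unshared model and 1000 or more coding bases, the product of FPKM and of the length less 202 bases moved in steps worth 1 read. Per library, 99.87% to 100% of low values (5 reads or fewer) came within 0.1 of a whole number.

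Log2(FPKM + 1) was tested with limma 3.58.1 (R 4.3.3), with a variance trend and 1 term per group over the 9 libraries together, for genes whose mean reached 1 FPKM. Its p-values are two-sided, adjusted by Benjamini-Hochberg across the tested genes, with 0.05 as threshold. Permutation tests and Poisson intervals used scipy 1.17.1. The test was also run on simulated counts whose spread was the same in every library. The real libraries scattered unequally, with array weights of 0.213 to 3.54, so that run cannot vouch for the p-values. No pair of libraries agreed within counting noise. Members, lists and rules were chosen with earlier results of these data known. The genes named are the 8 given by name and the gene closest in pattern to the member with the widest range.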

Additional observations from a re-analysis of the deposited data

How the results depend on the processing

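Sparc, Thbs1 and Dcn stayed lower and past the threshold with each pre-miR against anti-miR-29a under every alternative that tested them. Tried were pseudocounts of 0.1 and 5, no filter and a filter of 5 FPKM, median-of-ratios and quantile scaling, no variance trend, array weights, fits of the compared groups alone, a replicate block, and fits short of 1 library. The log2 fold changes spanned -1.85 to -1.81 for Sparc, -1.55 to -1.29 for Thbs1 and -1.04 to -0.89 for Dcn with pre-miR-29b-1. For pre-miR-29a they spanned -1.74 to -1.67, -1.60 to -1.34 and -1.09 to -0.98. Cyr61 was called higher after quantile normalization (0.18 for pre-miR-29b-1, and 0.17 given pre-miR-29a) and with array weights (0.14 and 0.17), so that 4 genes passed. Among genes with a single, unshared model, an alternative chosen after seeing the data, 2 passed because Dcn has 2 models and was not tested. Between the pre-miRs, array weights called Sparc, at -0.16, and no other alternative called any of the 4 genes. The number of all genes called there was 1. It became 3627 under array weights, 184 under the replicate block and 0 with only the groups compared (limma, where 1294 genes had an unadjusted p under 0.05), and lay between 1 and 1370 in fits short of 1 library. The 1370 came when replicate 1 of pre-miR-29a was omitted, and that library had the lowest array weight, 0.213. The cause of these moves was not tested. With the replicate block 5552 and 5870 genes were called against anti-miR-29a, for pre-miR-29b-1 first, and it changed the call of none of the 4 genes. Same-numbered libraries deviated together with r of -0.02 to 0.29, in 6 of 9 pairs over 0.1, and 13 of 18 best matches were to the same number. Libraries of different numbers gave r of -0.28 to 0.09, though taking deviations from a group mean ties these values to the same-numbered ones. The values are a hint that libraries of a number share something, but 3 same-numbered pairs were not over 0.1. The matches view each pair of groups from both sides, so they are not independent. The fits without the block are the ones reported because the labels name no pairing. Depth limits Fbn1, Tnc and Bgn, and a larger pseudocount shrinks the fold change of Thbs1 by construction.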
